A study of Homo sapiens with 6 samples.

Results

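The gp130 (IL6ST) cytokine receptor pathway was examined at the RNA level in SK-N-BE cells through 10 genes, of 60676 listed in the tables. These were the shared receptor chain IL6ST, the receptor chains LIFR, CNTFR, IL6R and OSMR, the kinases JAK1, JAK2 and TYK2, the transcription factor STAT3 and its feedback inhibitor SOCS3. IL6ST was selected on the values described here, since its RNA was among the strongest decreases after depletion of CyCoNP, and the other 9 genes were added as its known partners. Each symbol matched a single gene identifier, and 6 of the 10 genes (IL6ST, LIFR, CNTFR, JAK1, TYK2 and STAT3) passed the expression filter, a mean of at least 1 FPKM (counted fragments scaled to the length of the gene and the total of the library) in either group.

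SK-N-BE is a human neuroblastoma line that acquires neuronal features in retinoic acid. All 6 libraries came from cells kept for 1.5 days in differentiation medium with 10 μM retinoic acid. In 3 of them the cells had received a scrambled small interfering RNA (si-SCR), and in 3 they had received a pool directed against CyCoNP, a long noncoding RNA (si-CyCoNP). The study asked which RNAs depend on CyCoNP. These libraries come from 1 cell line and 1 siRNA pool. Within them, effects of the pool on other RNAs cannot be told apart from those of losing CyCoNP. The study also used a siRNA-resistant CyCoNP and, in motor neurons from stem cells, CyCoNP knock-out clones, in which it reported lower NCAM1 and SLC18A3 RNA. Neither is part of the libraries read here.

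Cytokines of the interleukin-6 family signal through gp130, the product of IL6ST. LIF binds a pair of gp130 and LIFR, while CNTF first binds CNTFR, a chain anchored in the membrane without a signalling tail of its own, and then recruits gp130 and LIFR. JAK kinases bound to the receptor tails phosphorylate STAT3, which enters the nucleus and switches on genes that include SOCS3, whose product dampens the receptor. In sympathetic neurons LIF and CNTF are known for turning noradrenergic cells towards a cholinergic and peptidergic state.

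The receptor genes lie on 3 chromosomes of GRCh38 (GENCODE release 44). IL6ST (ENSG00000134352) spans chr5:55935095-55995022, LIFR (ENSG00000113594) chr5:38474668-38608354 and CNTFR (ENSG00000122756) chr9:34551432-34590140, all on the minus strand. IL6R (ENSG00000160712) spans chr1:154405193-154469450 and OSMR (ENSG00000145623) chr5:38845858-38945596, both on the plus strand. Of the kinases, JAK1 (ENSG00000162434) lies at chr1:64833223-65067754 on the minus strand, JAK2 (ENSG00000096968) at chr9:4984390-5129948 on the plus strand and TYK2 (ENSG00000105397) at chr19:10350533-10380608 on the minus strand. STAT3 (ENSG00000168610) occupies chr17:42313324-42388540 and SOCS3 (ENSG00000184557) chr17:78356778-78360077, both on the minus strand.

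Promoters of the 3 receptor chains that fell and of STAT3, which rose, are shown as examples of members that differed between the groups in either direction. The windows run from 250 bases before to 50 bases after a transcription start (RefSeq, GRCh38.p14), 5′ to 3′ on the strand of the gene. Capitals mark GC boxes (GGGCGG or its complement CCGCCC) and matches to TTCNNNGAA, a consensus for STAT dimers that reads the same on both strands.
IL6ST, chr5:55994914-55995213, minus strand: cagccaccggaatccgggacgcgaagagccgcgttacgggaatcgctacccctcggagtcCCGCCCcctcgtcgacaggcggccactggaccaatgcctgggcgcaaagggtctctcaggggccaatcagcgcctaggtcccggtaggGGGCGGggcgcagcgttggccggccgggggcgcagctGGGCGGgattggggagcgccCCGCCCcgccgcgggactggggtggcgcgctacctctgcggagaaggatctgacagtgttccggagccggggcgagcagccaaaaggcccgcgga
CNTFR, chr9:34589675-34589974, minus strand: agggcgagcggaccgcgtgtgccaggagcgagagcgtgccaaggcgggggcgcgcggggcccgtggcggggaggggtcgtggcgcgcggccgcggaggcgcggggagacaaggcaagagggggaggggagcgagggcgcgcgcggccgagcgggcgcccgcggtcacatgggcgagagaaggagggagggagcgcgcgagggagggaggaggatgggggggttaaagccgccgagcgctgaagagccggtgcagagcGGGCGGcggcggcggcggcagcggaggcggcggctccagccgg
LIFR, chr5:38556597-38556896, minus strand: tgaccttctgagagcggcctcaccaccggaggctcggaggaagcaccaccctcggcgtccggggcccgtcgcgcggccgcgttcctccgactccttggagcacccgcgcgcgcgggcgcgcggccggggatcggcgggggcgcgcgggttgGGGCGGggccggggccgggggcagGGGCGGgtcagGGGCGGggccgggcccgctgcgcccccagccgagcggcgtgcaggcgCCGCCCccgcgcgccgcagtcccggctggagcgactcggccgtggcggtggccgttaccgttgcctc
LIFR, start further upstream, chr5:38595356-38595655, minus strand: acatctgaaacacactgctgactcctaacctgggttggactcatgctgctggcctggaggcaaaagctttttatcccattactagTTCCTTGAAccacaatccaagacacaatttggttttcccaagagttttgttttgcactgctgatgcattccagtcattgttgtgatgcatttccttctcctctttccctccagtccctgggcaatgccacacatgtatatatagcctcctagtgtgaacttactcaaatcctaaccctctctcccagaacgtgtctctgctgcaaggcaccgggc
STAT3, chr17:42388393-42388692, minus strand: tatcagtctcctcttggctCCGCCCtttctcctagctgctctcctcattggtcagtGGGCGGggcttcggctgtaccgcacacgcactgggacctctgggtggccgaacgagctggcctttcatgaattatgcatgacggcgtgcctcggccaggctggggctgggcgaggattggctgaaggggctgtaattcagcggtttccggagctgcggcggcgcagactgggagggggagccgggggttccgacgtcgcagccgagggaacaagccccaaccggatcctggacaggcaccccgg
The IL6ST window held 4 GC boxes, the CNTFR window 1, the GC-rich LIFR window 4 and the STAT3 window 2. Over the 18 windows of the 10 genes, 7 held a GC box (38.9%), against 45.0% of the 35116 windows of all genes in the table. TTCNNNGAA was in 2 of the 18 windows (11.1%) and in 7.66% of all windows. Both matches belonged to alternative starts of LIFR, with the first base 165 bases before the start in the window printed and 182 bases before it in the other. These are matches of letters only, and binding was not measured.

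The study examined the microRNA miR-4492 beside CyCoNP. Its mature sequence (RefSeq, GRCh38.p14, chr11:118910765-118910781, plus strand) is shown with its seed, bases 2 to 8, in capitals. Below it stand the stretches of 3′UTR around each match to the seed in the members, with the match CCAGCCC in capitals, taken from the reference transcript of each gene (GRCh38, strand of the gene).
hsa-miR-4492: gGGGCUGGgcgcgcgcc
LIFR, chr5:38480915-38480943: tgtgacactgaCCAGCCCaaatcataatc
LIFR, chr5:38478870-38478898: atgtgttctctCCAGCCCttactaactgg
CNTFR, chr9:34551890-34551918: cctgccgccccCCAGCCCtgccgcaccaa
TYK2, chr19:10350593-10350621: ggggcactaatCCAGCCCttaaatccccc
STAT3, chr17:42313522-42313550: cctccccatccCCAGCCCagccgagggaa
SOCS3, chr17:78357420-78357448: agggcaccaagCCAGCCCacagccaggga
The match was present in 5 of the 10 members (50%), against 21.2% of the 3′UTRs of 19550 protein-coding genes, which differ in length and GC content. The 3′UTR of IL6ST, 5987 bases long in the reference transcript, held no match, although 9 of its 18 annotated transcripts with a 3′UTR did. The 5 genes with a match included 2 whose RNA fell (LIFR and CNTFR), 1 whose RNA rose (STAT3), TYK2, which did not pass the test, and SOCS3, which was not tested. These are matches of letters in members of either direction, and no microRNA was measured here.

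The libraries held 3762009 to 4799407 counted fragments and 19519 to 20520 genes with a count. LINC02381, the gene of CyCoNP, had 274, 208 and 315 counts with si-SCR against 20, 30 and 12 with si-CyCoNP, a log2 fold change of -3.78 (SE 0.19, adjusted p = 6.84e-14, edgeR quasi-likelihood test). Over the 13966 genes tested, 14.2% were lower and 14.2% higher in the depleted cells by an adjusted p below 0.05, and 2.98% and 2.28% passed the rule of the study, which also asks for a log2 fold change below -1 or above 1. With library totals as the only scaling the split over all genes moved from 1990 lower and 1982 higher to 1574 and 2465. The labels give no source of the replicates beyond their numbers, so the p-values measure the spread between these libraries, which may be technical.

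Of the 6 members tested, IL6ST, LIFR, CNTFR and JAK1 were lower in si-CyCoNP, STAT3 was higher, and TYK2 did not pass. IL6ST and CNTFR were past the rule of the study. Since IL6ST was chosen by its decrease in this contrast, these counts describe the pathway and are read neither against the 14.2% of all genes nor as support for a change of the group. In bulk RNA fewer cells of a type and less RNA per cell cannot be told apart, and this holds for every difference below.

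**Figure D1:**
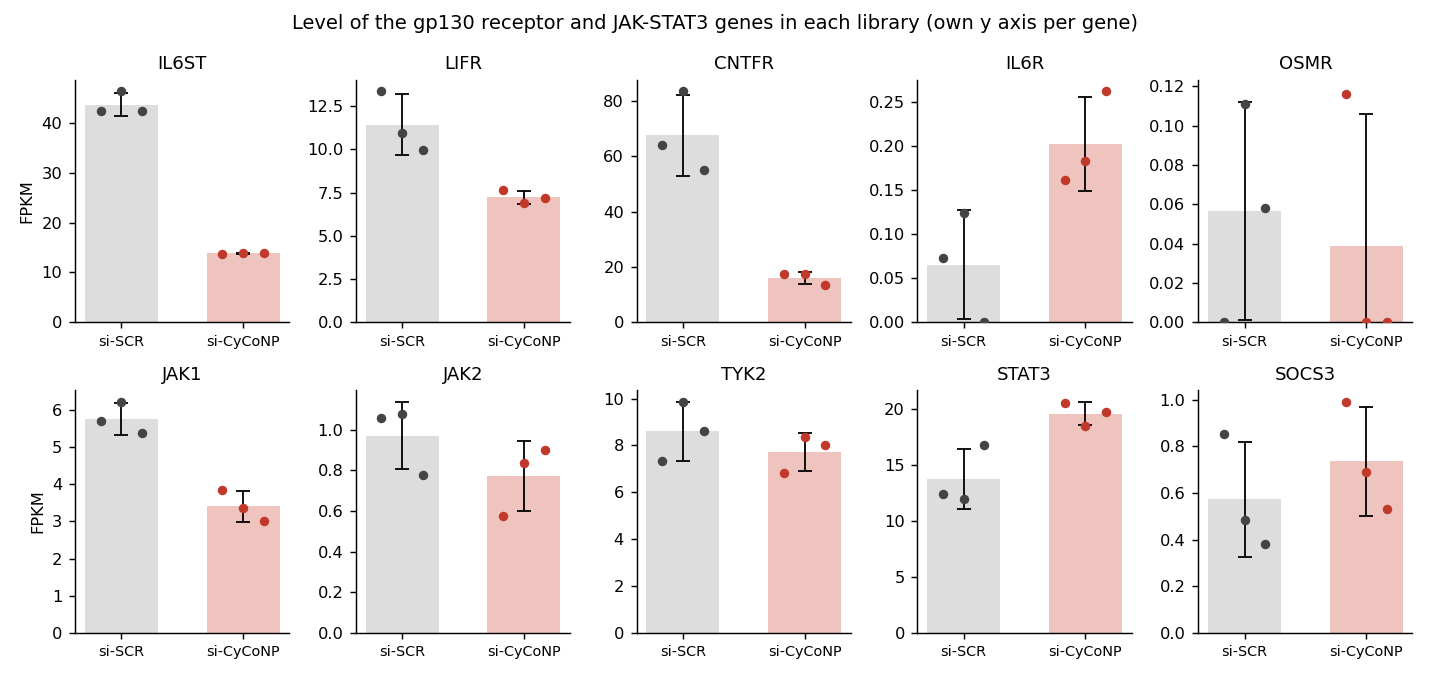
Level of the 10 genes in FPKM (y axis, own scale for each gene, starting at 0) in si-SCR and si-CyCoNP. Points are the 3 libraries of a group, bars their mean and error bars the SD, cut at 0 where it would reach below. IL6ST, LIFR, CNTFR and JAK1 were lower in every si-CyCoNP library than in any si-SCR library, STAT3 was higher in every one, and OSMR and IL6R stayed under 0.3 FPKM.

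IL6ST, the signal-transducing chain shared by the whole cytokine family, was measured at 42.5, 46.4 and 42.4 FPKM in the si-SCR libraries and at 13.7, 13.9 and 14.0 FPKM in the si-CyCoNP libraries. The groups stood far apart, with a spread of 43.8 ± 2.31 FPKM (SD, n = 3) in si-SCR and 13.9 ± 0.129 FPKM (SD, n = 3) in si-CyCoNP, so that, relative to its mean, IL6ST was the most even of the members in the depleted cells. The counts behind these levels were 1846, 1767 and 2050 against 667, 596 and 587. The log2 fold change was -1.73 (SE 0.08), which left 30.2% of the si-SCR level. By p-value IL6ST stood in place 2 among the genes that were lower, which restates the decrease by which it was chosen. In si-SCR, 94.4% of the tested genes had a lower level than IL6ST, and in si-CyCoNP 77.4%.

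CNTFR, the ligand-binding chain specific to CNTF and its relatives, had the largest fitted decrease of the members. Its level was 64.1, 83.6 and 55.1 FPKM in si-SCR and 17.3, 17.4 and 13.3 FPKM in si-CyCoNP. Every si-SCR library was at least 3 times as high as any si-CyCoNP library. Counts were 578, 660 and 553 against 174, 155 and 116, and the log2 fold change was -2.14 (SE 0.14, adjusted p = 5.06e-12), leaving 22.7% of the si-SCR level. CNTFR was, per length, the highest of the 10 genes in si-SCR and the only one of them above IL6ST there.

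LIFR, the second signalling chain of the LIF and CNTF receptors, fell too, with a smaller fitted change. It was measured at 13.4, 10.97 and 9.96 FPKM in si-SCR and at 7.63, 6.89 and 7.18 FPKM in si-CyCoNP. The groups did not overlap, and the si-SCR libraries varied more (SD 1.75 FPKM) than the si-CyCoNP libraries (SD 0.371 FPKM). The log2 fold change was -0.73 (SE 0.11, adjusted p = 5.77e-06), with 60.4% of the level remaining. Leaving out si-SCR replicate 1, the highest library, gave -0.58, and LIFR still passed.

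The remaining receptor chains among the members were close to absent. IL6R, the chain that binds interleukin-6, had 2, 3 and 0 counts in si-SCR against 5, 5 and 7 in si-CyCoNP. OSMR, which binds oncostatin M, had 0, 3 and 2 counts in si-SCR against 4, 0 and 0 in si-CyCoNP. Both were at or under 3 counts in every si-SCR library, the floor used here, so no fold change is given. The IL6R counts did not overlap between groups, but the fit without a filter gave an adjusted p of 0.271 (edgeR).

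Per length, the receptor RNAs of si-SCR cells thus stood in the order CNTFR, IL6ST, LIFR, with no overlap between libraries of neighbours. In si-CyCoNP the order held for the means, but the libraries of CNTFR (13.3 to 17.4 FPKM) and IL6ST overlapped. The IL6ST to LIFR ratio within a library, which does not depend on scaling between libraries, was 3.18, 4.23 and 4.26 in si-SCR against 1.80, 2.01 and 1.95 in si-CyCoNP. The CNTFR to LIFR ratio was 4.80, 7.62 and 5.54 against 2.27, 2.52 and 1.86. Both ratios were lower in every si-CyCoNP library. For IL6ST to LIFR this is a description only, since IL6ST was chosen by its decrease. The CNTFR to IL6ST ratio was 1.51, 1.80 and 1.30 against 1.26, 1.25 and 0.953, groups that came close to touching.

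**Figure D2:**
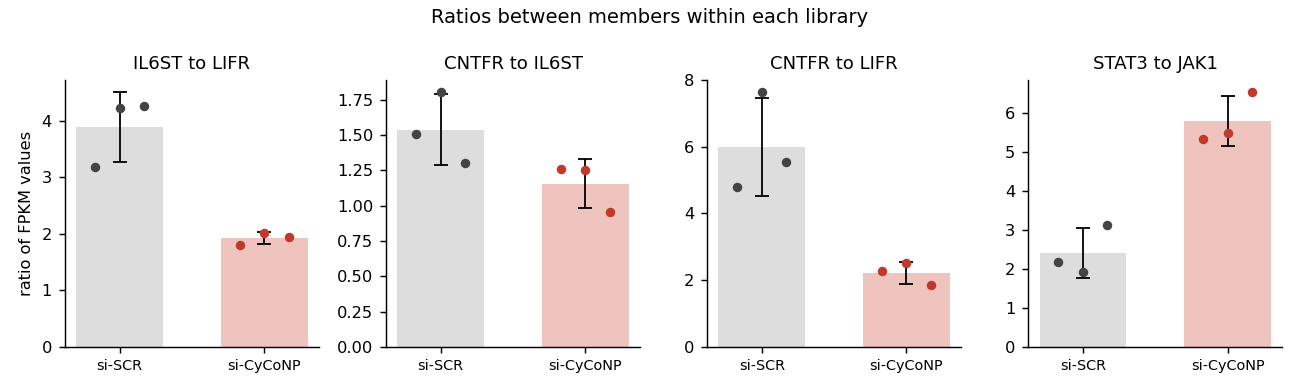
Ratios of FPKM values (y axis, no unit, starting at 0) between pairs of members within each library, for IL6ST to LIFR, CNTFR to IL6ST, CNTFR to LIFR and STAT3 to JAK1. Points are the 3 libraries of si-SCR and of si-CyCoNP, bars the mean and error bars the SD. The mean IL6ST to LIFR ratio was 3.89 in si-SCR and 1.92 in si-CyCoNP, and the mean STAT3 to JAK1 ratio 2.41 and 5.79.

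Among the kinases only JAK1 passed the test, and the members of this class moved unequally. JAK1, the main kinase of gp130 signalling, was at 5.70, 6.21 and 5.37 FPKM in si-SCR and at 3.85, 3.36 and 3.02 FPKM in si-CyCoNP. No library of one group reached the other, and the log2 fold change was -0.82 (SE 0.12, adjusted p = 3.79e-06), with 56.7% remaining. TYK2, which can also bind gp130, was at 7.33, 9.85 and 8.62 FPKM against 6.81, 8.36 and 8.03 FPKM, overlapping groups with a log2 difference of -0.22 (SE 0.12, 95% interval -0.47 to 0.03, adjusted p = 0.194). This interval leaves out a fall as large as that of JAK1 but not a small one. JAK2 had 28, 25 and 23 counts in si-SCR against 17, 22 and 23 in si-CyCoNP, a mean of 0.971 and 0.771 FPKM, just under the filter. Its log2 difference in the fit without a filter was -0.39 (SE 0.31, 95% interval -1.01 to 0.22, adjusted p = 0.534). JAK2 thus did not pass, and the interval does not leave out a fall down to its lower end.

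STAT3 moved in the opposite direction to the receptor chains. It was measured at 12.4, 11.9 and 16.8 FPKM in si-SCR and at 20.5, 18.5 and 19.7 FPKM in si-CyCoNP. All si-CyCoNP libraries were higher, though si-SCR replicate 3 came close to the lowest of them. The log2 fold change was 0.45 (SE 0.10, adjusted p = 0.00136), a rise of 1.36-fold, with 0.60 on the log2 scale without si-SCR replicate 3 and 0.36 without si-SCR replicate 2. STAT3 was the highest of the 10 genes per length in si-CyCoNP, where it lay above every receptor chain among them, while in si-SCR it overlapped LIFR. The STAT3 to JAK1 ratio was 2.17, 1.92 and 3.13 in si-SCR against 5.34, 5.51 and 6.54 in si-CyCoNP. The STAT3 to IL6ST ratio, a description only since IL6ST was chosen by its decrease, was 0.292, 0.257 and 0.397 against 1.50, 1.33 and 1.41. These are levels of RNA, and phosphorylation of STAT3 was not measured.

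SOCS3, the feedback inhibitor that STAT3 induces, had 10, 5 and 5 counts in si-SCR against 13, 8 and 6 in si-CyCoNP. The groups overlapped, the gene was under the filter at 0.573 and 0.736 FPKM on average, and its log2 difference in the fit without a filter was 0.31 (SE 0.53, 95% interval -0.74 to 1.36, adjusted p = 0.759). At these counts the interval leaves out neither a fall nor a rise of a size within it.

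**Figure D3:**
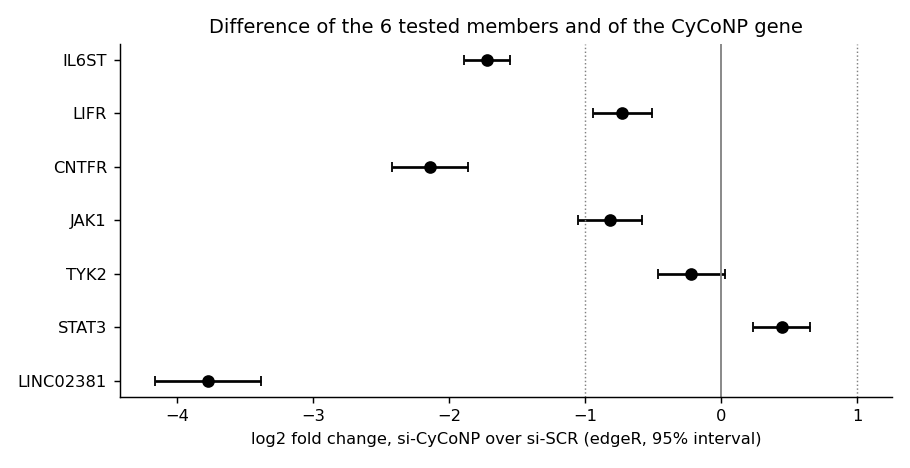
Log2 fold change of si-CyCoNP over si-SCR (x axis) with its 95% interval for the 6 members tested and LINC02381, from the edgeR fit over all genes. Solid and dotted lines mark 0 and a log2 fold change of -1 and 1. CNTFR and IL6ST, the latter chosen by its decrease, lie wholly below -1, LIFR and JAK1 lie below 0, the interval of TYK2 crosses 0, and STAT3 lies above 0.

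Genes that overlap a member or lie within 5 kb could share its reads. Of 19 such genes with a count, 3 passed the filter and of these 3, 0 passed an adjusted p of 0.05 in edgeR, with 0 at an unadjusted p under 0.05 and 0 in DESeq2. Under the filter, the fit without it gave an unadjusted p of 0.0359 for STAT5A and 0.047 for MTCO3P11, and neither passed after adjustment. RICTOR, which overlaps the end of OSMR on the opposite strand, had 221 to 286 counts (log2 difference -0.10, SE 0.11, adjusted p = 0.54). RAVER2, which touches the end of JAK1 on the opposite strand, had 55 to 97 counts (log2 difference -0.17, SE 0.19, adjusted p = 0.55). The microRNA gene MIR3671, inside JAK1, had 0 to 3 counts and passed only because FPKM rises in a gene of 88 bases. LIFR-AS1, which overlaps LIFR on the opposite strand, had 13 to 30 counts, against 356 to 698 for LIFR, and the pseudogene IL6STP1 had 1 count in all. Whether the counting used strand is not given in the sources used here. The counts of LIFR-AS1 and IL6STP1 were small beside those of LIFR and IL6ST, whereas RICTOR had far more counts than OSMR (0 to 4) and RAVER2 was not small beside JAK1 (158 to 324).

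The ligands of the family were nearly undetected in these cells. None of the 11 ligand genes passed the filter, and 5 of them (IL6, OSM, IL27, EBI3 and IL31) had 0 counts in all 6 libraries, which allows up to 3 counts, or 0.625 to 0.797 CPM (counts scaled to the library total), in a library. The highest by mean FPKM, IL11, had 12, 4 and 12 counts in si-SCR against 9, 6 and 7 in si-CyCoNP, groups that overlapped. LIF had 2, 4 and 4 counts against 9, 3 and 2, and CNTF 0, 6 and 5 against 5, 0 and 6. RNA of the cells says nothing of cytokines carried in by the serum.

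Of 35 other cytokine receptor genes, 27 were under the filter and 12 of these had no count. Among the 8 tested, 3 were lower, 1 was higher and 4 did not pass, beside 14.2% of all genes in each direction. Their median log2 fold change was -0.21 beside 0.01 over all genes tested. EPOR, the erythropoietin receptor, was at 2.88, 4.32 and 4.14 FPKM in si-SCR and 1.49, 2.06 and 2.27 FPKM in si-CyCoNP (log2 fold change -1.03, SE 0.25, adjusted p = 0.0028). The interferon receptor chains IFNAR1 (-0.33, SE 0.09, adjusted p = 0.0083) and IFNGR1 (-0.52, SE 0.15, adjusted p = 0.0088) were also lower, the IFNGR1 call being lost in 3 refits. IL27RA, the partner of gp130 in the interleukin-27 receptor, was higher (0.78, SE 0.24, adjusted p = 0.014). Its libraries did not overlap, with 44, 29 and 26 counts against 74, 52 and 59, but the call was lost without si-SCR replicate 3 (adjusted p = 0.0854) and without si-CyCoNP replicate 1 (adjusted p = 0.0615). The receptor RNA with the highest level in this list was IL13RA2, at 48.4 to 55.4 FPKM in si-SCR and 58.0 to 67.5 FPKM in si-CyCoNP (0.20, SE 0.10, adjusted p = 0.12), and it was named after its values had been seen.

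Of 10 other JAK and STAT pathway proteins, 5 were tested. STAM2, a partner of JAK kinases in receptor sorting, fell (-1.01, SE 0.16, adjusted p = 1.6e-05), from 4.30, 3.96 and 4.47 FPKM to 2.09, 2.08 and 2.46 FPKM. In all, 3 were lower and 0 were higher, beside 14.2% of all genes in each direction. The count of 0 higher also held at an unadjusted p under 0.05 in edgeR and in DESeq2. STAT2 (-0.52, SE 0.19, adjusted p = 0.043), a signal carrier of interferon receptors, was among those lower, a call that was lost under several alternatives. STAT5B and STAM did not pass. The list had a median log2 fold change of -0.32, and STAT3 was the single STAT gene whose RNA rose among the 4 tested.

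Of 15 negative regulators tested, 2 were lower, 3 were higher and 10 did not pass, beside 14.2% of all genes in each direction, and the median log2 fold change was -0.08. SOCS4 (-0.38, SE 0.09, adjusted p = 0.002) and SOCS5 (-0.35, SE 0.11, adjusted p = 0.019), relatives of SOCS3 that act mainly on growth factor receptors, fell, the SOCS5 call being lost in 7 of 15 refits. SH2B3, an adaptor that restrains JAK2, rose from 78.6, 70.7 and 62.4 FPKM to 95.8, 101 and 91.0 FPKM (0.37, SE 0.09, adjusted p = 0.0017). PTPN1, a phosphatase that acts on JAK kinases, was higher (0.30, SE 0.09, adjusted p = 0.016), as was the ubiquitin ligase CBLB (0.32, SE 0.10, adjusted p = 0.017), calls that were lost in 4 and 5 refits. SOCS1 was listed with 10, 16 and 12 counts against 10, 5 and 8 and did not pass (-0.83, SE 0.47, adjusted p = 0.21).

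Gp130 also signals through the phosphatase SHP2 to the ERK and PI3K pathways. Of 23 genes tested in this arm, 5 were lower, 2 were higher and 16 did not pass, beside 14.2% of all genes in each direction. The median log2 fold change was -0.08. The docking protein GAB2, which couples SHP2 to receptors, fell from 64.0, 62.0 and 65.0 FPKM to 42.6, 42.5 and 37.6 FPKM (-0.71, SE 0.08, adjusted p = 8.2e-08). The Ras exchange factor SOS2 (-0.67, SE 0.12, adjusted p = 9.1e-05) also fell. The SHP2 gene itself, PTPN11, was higher (0.40, SE 0.10, adjusted p = 0.0029), as was AKT1 (0.58, SE 0.09, adjusted p = 2.4e-05), which rose from 7.05, 7.81 and 8.93 FPKM to 12.8, 12.1 and 12.4 FPKM. The PTPN11 call was lost in both fits on log2 FPKM values.

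**Figure D4:**
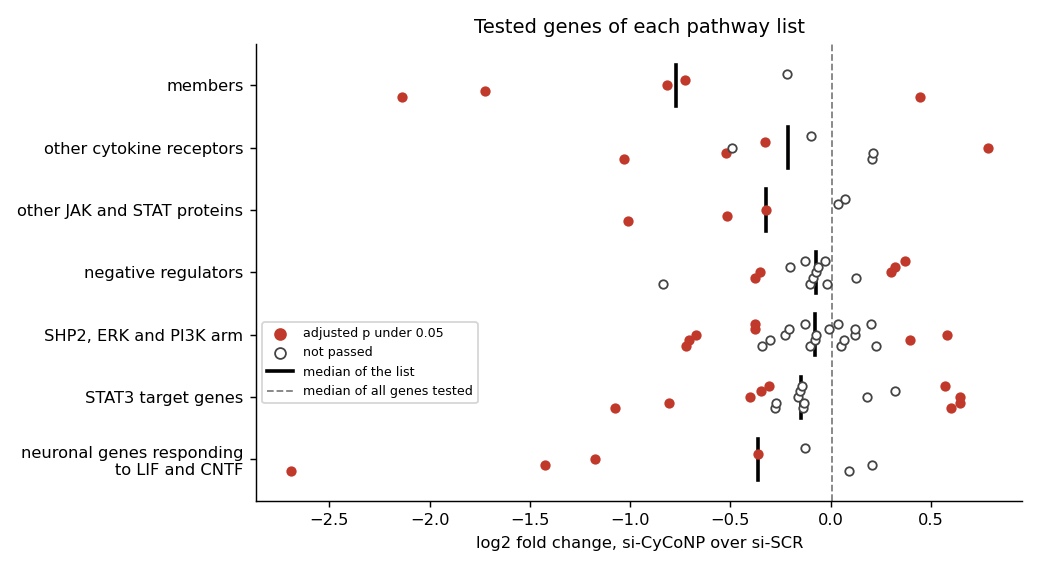
Log2 fold change of si-CyCoNP over si-SCR (x axis) of each tested gene of the members and of 6 pathway lists (rows). Filled points passed an adjusted p of 0.05, open points did not, black bars are list medians and the dashed line is the median of all genes tested, 0.01. Points spread to both sides of 0 in the regulators, the SHP2 arm and the STAT3 targets, while the tested receptors CNTFR and IL6ST and the LIF and CNTF responsive gene SLC18A3 lie far to the left.

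Genes known as targets of STAT3 were listed from general knowledge. Of 34 listed, 18 were tested, 5 were lower, 4 were higher and 9 did not pass, beside 14.2% of all genes in each direction, and the median log2 fold change was -0.15. The growth factor gene HGF fell from 19.9, 18.1 and 18.9 FPKM to 10.9, 9.19 and 8.16 FPKM (-1.08, SE 0.10, adjusted p = 2.9e-09). HIF1A (-0.80, SE 0.08, adjusted p = 2.3e-08) and the cyclin gene CCND1 (-0.40, SE 0.07, adjusted p = 8.3e-05) were also lower. The immediate early gene EGR1 rose from 61.8, 59.4 and 61.0 FPKM to 92.4, 91.9 and 105 FPKM (0.60, SE 0.08, adjusted p = 3.1e-06). The kinase gene PIM3 (0.65, SE 0.10, adjusted p = 2.1e-05) and the survivin gene BIRC5 (0.57, SE 0.11, adjusted p = 0.00014) were higher too. Of the survival genes, BCL2L1 was higher (0.65, SE 0.12) and MCL1 was lower (-0.31, SE 0.08), both named after their values had been seen. Acute phase targets of the liver (FGG, CRP, SERPINA3) had no count, and several of the listed genes answer to many other signals.

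Neuronal genes known to respond to LIF and CNTF included the largest fitted decrease of all pathway lists. Of 10 listed, 7 were tested, 4 were lower, 0 were higher and 3 did not pass, beside 14.2% of all genes in each direction. The median log2 fold change was -0.36, the value of DBH, since the list mixes cholinergic and peptide genes with noradrenergic ones. The count of 0 higher was the same at an unadjusted p under 0.05 in edgeR and in DESeq2. SLC18A3, the vesicular acetylcholine transporter, was at 33.1, 43.7 and 26.7 FPKM in si-SCR and at 5.19, 7.32 and 4.20 FPKM in si-CyCoNP (-2.69, SE 0.18, adjusted p = 1e-11), and it is also one of the genes that the study itself followed from these libraries. The neuropeptide gene VIP was at 140, 230 and 167 FPKM against 70.2, 72.9 and 65.7 FPKM (-1.43, SE 0.12, adjusted p = 7.3e-10). The galanin gene GAL was at 312, 391 and 290 FPKM against 159, 161 and 140 FPKM (-1.17, SE 0.10, adjusted p = 6.4e-10). For each of the 3 genes, no si-CyCoNP library reached a si-SCR library. The choline acetyltransferase gene CHAT had 3, 9 and 9 counts against 1, 0 and 0, under the filter and at the floor in si-CyCoNP.

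Noradrenergic genes of the same list, named after their values had been seen, gave 1 call. DBH, which makes noradrenaline from dopamine, was lower (-0.36, SE 0.08, adjusted p = 0.00089), from 357, 375 and 446 FPKM to 305, 322 and 331 FPKM. TH, the first enzyme of catecholamine synthesis, was at 39.1, 47.4 and 56.1 FPKM against 44.6, 44.4 and 47.7 FPKM (-0.13, SE 0.10, adjusted p = 0.38). NPY (0.09, SE 0.15, adjusted p = 0.69) and SST (0.21, SE 0.56, adjusted p = 0.83) also overlapped between groups. Whether the fall of SLC18A3, VIP and GAL goes with that of the receptor chains through signalling was not tested.

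**Figure D5:**
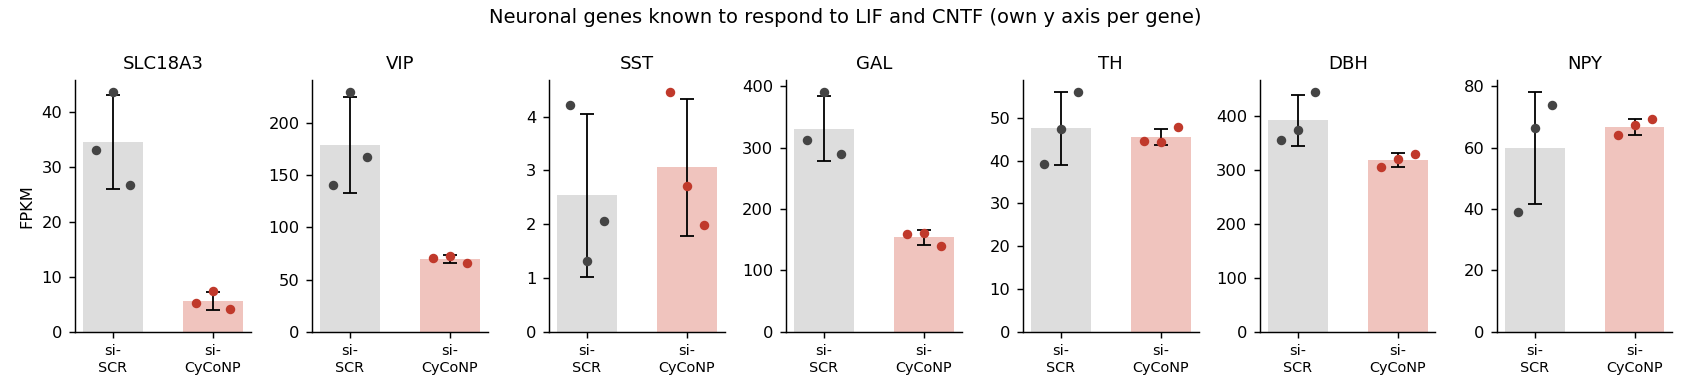
Level in FPKM (y axis, own scale for each gene, starting at 0) of the 7 tested neuronal genes known to respond to LIF and CNTF, in si-SCR and si-CyCoNP. Points are the 3 libraries of a group, bars the mean and error bars the SD. SLC18A3, VIP, GAL and DBH were lower in every si-CyCoNP library, and the groups of SST, TH and NPY overlapped.

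Markers of neuroblastoma cell state also differed between the groups. Of 12 adrenergic markers, all tested, 9 were lower and 2 higher, beside 14.2% of all genes in each direction. Their summed level ran from 2508 to 3119 FPKM in si-SCR and from 2034 to 2272 FPKM in si-CyCoNP. Examples were CHGA (-1.24, SE 0.12) and GATA2 (-1.06, SE 0.08), whereas MYCN was higher (0.84, SE 0.08). Of 15 mesenchymal markers, 8 were tested, 3 were lower and 4 were higher, beside the same share of all genes. Those lower were LGALS1 (-1.27, SE 0.09), SNAI2 (-1.27, SE 0.19) and VIM (-0.43, SE 0.09). Those higher were FN1 (2.88, SE 0.15), COL3A1 (2.83, SE 0.46), FOSL1 (2.76, SE 0.78) and COL1A1 (1.68, SE 0.25). FOSL1 was at the floor in si-SCR, and the calls of COL3A1 and FOSL1 were lost in 2 and 3 refits. The median log2 fold change of the mesenchymal markers tested was 0.66. PRRX1 and TWIST2 had no count in any library. The summed level of the list ran from 475 to 577 FPKM in si-SCR and from 245 to 276 FPKM in si-CyCoNP, most of it from LGALS1. The part of these shifts in the values of IL6ST, CNTFR and LIFR was not tested.

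Markers of other cell types were near 0. Of 8 immune markers, 7 were under the filter, with CD3E, AIF1 and ITGAM without a count and PTPRC at 0 to 2 counts, and the summed level was 1.58 to 2.02 FPKM in si-SCR and 2.53 to 5.60 FPKM in si-CyCoNP, nearly all of it CD14 (1.21, SE 0.35). Of 6 Schwann cell markers, 5 were under the filter, with SOX10 and CDH19 without a count, and the summed level was 1.52 to 3.37 FPKM against 8.78 to 14.7 FPKM. These markers without a count were thus absent from libraries in which IL6ST was at 13.7 FPKM or more.

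The profile of IL6ST over the 6 libraries was compared with those of the other 13965 tested genes as the root mean square distance between log2 CPM values, each centred on its mean. The nearest were ELAPOR2 (distance 0.051), FBXO8 (0.109), MBNL3 (0.111), CYGB (0.121) and REEP3 (0.122). All 5 were chosen by these values and are given without a test. FBXO8, which encodes an F-box protein, was at 72.3, 78.4 and 66.5 FPKM in si-SCR and 20.5, 20.2 and 19.2 FPKM in si-CyCoNP. CYGB, the gene of cytoglobin, was at 49.8, 53.4 and 39.9 FPKM against 15.0, 16.9 and 14.9 FPKM. ELAPOR2 had the nearest profile at a low level, with 53, 54 and 58 counts against 19, 16 and 17. Of the members, CNTFR came in place 110 (0.274), JAK1 in place 496 (0.463), LIFR in place 740 (0.524), TYK2 in place 3519 (0.764) and STAT3 in place 11569 (1.11). These places follow mostly from the size of the difference between groups, the value by which IL6ST was chosen.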

How the data were processed

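The authors prepared stranded total RNA libraries after removal of ribosomal RNA. Per the labels' processing notes, Trimmomatic 0.39, cutadapt 3.2, Bowtie2 2.4.2 and STAR 2.7.7a were used with GRCh38, and per the study's methods the gene counts came from STAR on Ensembl release 99. The deposited tables hold raw counts and FPKM values by the authors, scaled to gene length and library total. Uniquely mapping reads were counted, so genes with near-identical copies are undercounted. Symbols matched 60357 of 60676 identifiers, and no per-sample column was left without a sample.

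Genes with a mean of at least 1 FPKM in either group were tested on the counts with edgeR 4.0.16 (TMM, quasi-likelihood, no covariate) in R 4.3.3, with Benjamini-Hochberg adjustment over the 13966 genes tested. Standard errors are the absolute log2 fold change over the square root of F, and 95% intervals use the t distribution of the fit. For genes under the filter, estimates come from a fit without it. Code was tested on simulated data. Alternatives were DESeq2 1.42.0, other scalings and filters, the replicate block, leaving out each library, and limma 3.58.1 on log2(FPKM + 1) and log2(FPKM + 0.1). A library at or under 3 counts was at the floor, and floors cover counting error only.

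The members and gene lists were chosen with earlier results of these data known. Genes named were the members, LINC02381, in each list those past the study's rule and the 3 with the smallest p-value per direction, the highest gene of a list without calls, neighbours of the members and the 5 profiles nearest to IL6ST, with exceptions stated. LIF, CNTF, STAM, STAT5B, SOCS1 and CHAT were also named after their values had been seen. Sequences are from RefSeq (GRCh38.p14) and GENCODE release 44. Coordinates are from that release, so gene ends may differ from those the authors used. Some genes of the lists are not reported here by name and enter only the counts and medians.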

Additional observations from a re-analysis of the deposited data

How the results depend on the processing

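In all 15 refits of the test the members gave 4 lower and 1 higher, the same genes each time, with log2 fold changes of -1.77 to -1.59 for IL6ST, -2.29 to -1.96 for CNTFR, -0.84 to -0.58 for LIFR, -0.92 to -0.62 for JAK1 and 0.36 to 0.60 for STAT3, and adjusted p-values of at most 0.0403 for CNTFR, LIFR, JAK1 and STAT3. TYK2 stayed between -0.31 and -0.11 and never passed. LINC02381 ran from -4.16 to -2.90. The replicate numbers could not be shown to pair the libraries (correlations of deviations 0.0907, 0.0727 and 0.108), although all 6 libraries correlated best with the library of their own number, and with the replicate block 2368 genes were lower and 2403 higher, without a changed call among the genes named. Of all genes, log2(FPKM + 1) gave 1118 lower, and by the study's rule 180 lower and 207 higher, and log2(FPKM + 0.1) gave 1113 lower. With library totals alone, which moved the median by 0.067, other cytokine receptors gave 2 higher, other JAK and STAT proteins 1 lower, negative regulators 1 lower and the SHP2 arm 4 higher. Without a filter, other cytokine receptors gave 2 higher. Both FPKM fits gave 1 lower among other JAK and STAT proteins and 1 among negative regulators. Leaving out one library at a time gave 0 to 1 higher among other receptors, 1 to 2 lower among other JAK and STAT proteins, and 1 to 2 lower and 1 to 3 higher among negative regulators. STAT2 lost its call in 9 refits, SOCS5 in 7, CBLB in 5, PTPN1 in 4, IFNGR1 in 3, IL27RA and PTPN11 in 2 each, and the cause was not tested. The adjusted p of STAT2 was 0.245 without si-SCR replicate 3 and 0.086, 0.111 and 0.0779 without si-CyCoNP replicates 1, 2 and 3. That of SOCS5 was 0.0711 and 0.0915 without si-SCR replicates 1 and 2 and 0.0978 and 0.0671 without si-CyCoNP replicates 2 and 3. That of CBLB was 0.103 without si-SCR replicate 3 and 0.0964 and 0.0522 without si-CyCoNP replicates 1 and 2. That of PTPN1 was 0.054 and 0.065 without si-SCR replicates 2 and 3 and 0.074 and 0.0504 without si-CyCoNP replicates 1 and 2. That of IFNGR1 was 0.0522 without si-SCR replicate 2, and that of the marker CD14 was 0.0924 without si-CyCoNP replicate 1. In all, 688 values of single genes kept direction and side of the threshold, 45 kept only the direction and 0 reversed. In the order of levels in si-SCR, STAT3 and LIFR exchanged places without si-SCR replicate 3, as did IL6R and OSMR, both at the floor, without si-SCR replicate 1. At 3762009 to 4799407 counts per library, JAK2, SOCS3, IL6R, OSMR and the ligands had too few counts for a moderate change to be detectable.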
